A study of Mus musculus with 4 samples.

Results

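The endothelial junction and receptor genes described here are 10 genes that mark the lining of blood vessels: Cdh5, Pecam1, Esam, Cldn5, Kdr, Flt1, Tie1, Tek, Emcn and Ramp2. Their probes were taken by gene symbol, with old symbols brought up to date, which changed only Esam, listed on the array as Esam1. Of the 10 genes, 9 had a probe among the 16637 named genes, and they were read by 10 of the 29922 probes, 2 of them for Pecam1. No probe was named for Emcn, which encodes the endothelial sialomucin endomucin, and it was not analysed here.

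Endothelial cells hold to one another through adherens junctions built on VE-cadherin and through tight junctions that include claudin-5. They read vascular endothelial growth factor (VEGF) through the VEGF receptors and angiopoietins through the TIE receptors, and these inputs set how vessels sprout, mature and leak. In the early jaw, vessels run through mesenchyme derived from the neural crest, which supplies many of the ligands. BMPs act on endothelium as well, through receptors that include ALK1 and endoglin.

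RNA came from whole mandibles of mouse embryos on a C57BL/6 background at stage E11.5. The control group was wild-type (2 arrays), and the other group carried conditional Bmp4 overexpression, called Bmp4 OE here, which doxycycline had induced for 24 hours (2 arrays). The driver of the transgene, the treatment of the controls and the source of the replicates (separate embryos, litters or one RNA pool) are not stated in the labels. Drug and genotype effects therefore cannot be told apart from that of Bmp4, and p-values reflect only how far these arrays differ from each other, which may be technical spread. Each array held 1 sample and gave normalised log2 intensities with a median of 7.95 and a lower quartile of 6.79. Arrays of one group correlated at 0.993 over all probes in both groups and arrays of different groups at 0.974 to 0.981. Bmp4 itself read 11.96 and 12.07 in controls and 15.27 and 15.31 in Bmp4 OE. Among markers of endothelium, all 9 measured members lay above the lower quartile, as did Cd34, Eng, Egfl7, Robo4, Sox17 and Sox18. Erg, a transcription factor of endothelium, lay below it in both groups, as did 2498 of the 16637 named genes. Detection calls were not used, so presence was not tested.

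Of the 9 measured members, 2 rose in Bmp4 OE, 0 fell and 7 did not pass. The gene for the adrenomedullin co-receptor Ramp2 rose 2.86-fold and the tight junction gene Cldn5 rose 1.47-fold, whereas VE-cadherin (Cdh5), the classic junction protein of this cell type, had a log2 fold change of -0.06. A gene passed at an adjusted p below 0.05 in limma, a linear model with variances shared across probes, with Benjamini-Hochberg adjustment over all probes and the brightest probe standing for each gene. By that rule 16.9% of all named genes passed, 7.39% upwards and 9.54% downwards, against 22.2% of the members, all upwards. All 9 measured members lay above the median intensity of 7.95, and the share that passed among genes of like brightness was not counted. The members' median log2 fold change was 0.35, beside 0 for all named genes, and 8 of the 9 were above 0, as were 49.6% of all named genes. With the arrays centred on the median of 13 housekeeping genes instead, 6 of the 9 were above 0, and neither Ramp2 nor Cldn5 passed (limma, adjusted p = 0.0617 and 0.836). That scaling gave log2 fold changes of 1.26 for Ramp2 and 0.30 for Cldn5. It also widened their SE to 0.38 each, from 0.10 and 0.11 as deposited. None of these housekeeping genes passed as deposited, 3 of them with an unadjusted p under 0.05 (limma), as 6063 of the 16637 named genes had. Both Bmp4 OE arrays lay above both control arrays in 7 members, where 31.0% of all named genes did so. In RNA of a whole tissue, fewer endothelial cells and less of these RNAs per cell cannot be told apart, and the same holds for more. Without control replicate 1, control replicate 2, Bmp4 OE replicate 1 or Bmp4 OE replicate 2 in turn, 1 residual degree of freedom remained. Then 0 probes passed in limma, while 6020, 7947, 6650 and 7363 probes had an unadjusted p under 0.05. In these fits the lone array of a group is assumed to vary like the arrays of the other group.

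**Figure D1:**
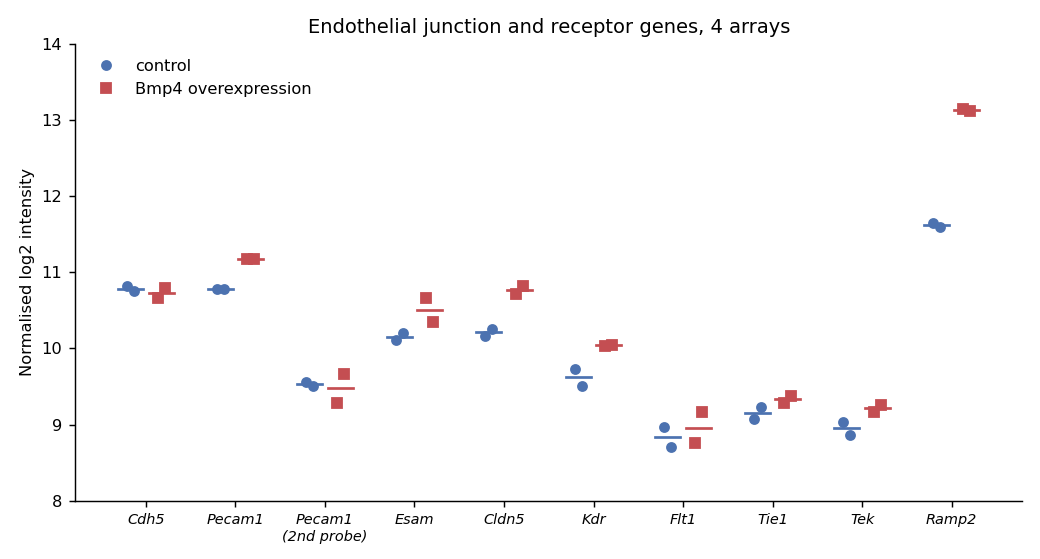
Normalised log2 intensity (vertical axis) of the 9 measured genes on the 4 arrays, with 2 control arrays as circles, 2 Bmp4 overexpression arrays as squares and a bar at each group mean; Pecam1 has a second probe. Ramp2 separates most, from 11.59 and 11.65 to 13.12 and 13.15, while Cdh5, Flt1 and the second Pecam1 probe overlap between groups; heights of different genes are not comparable.

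Ramp2 encodes a small membrane protein that carries the calcitonin receptor-like receptor (Calcrl) to the cell surface and makes it a receptor for adrenomedullin, a peptide needed for vessel integrity in the embryo. It read 11.65 and 11.59 in controls and 13.15 and 13.12 in Bmp4 OE (log2 intensity). The groups were far apart, and the arrays of each group differed by far less than the gap. The log2 fold change was 1.52 ± 0.10 (SE, n = 2 per group; 95% interval 1.26 to 1.77; limma, adjusted p = 0.0034), the rise of rank 67 among 16637 named genes. It was the only member past the study's own threshold (at least 2-fold, unadjusted p under 0.05), which 1.56% of named genes passed upwards. Set within each array against the median of the other 8 members, Ramp2 lay 1.73 and 1.74 above it in controls and 2.81 and 2.92 above it in Bmp4 OE. The change of Ramp2 was thus unequal to that of the other members, a difference for which 2 arrays against 2 allow no exact permutation p below 0.33.

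No other gene of adrenomedullin signalling passed upwards. Calcrl, the receptor that RAMP2 partners, read 6.28 and 6.28 in controls and 6.02 and 6.17 in Bmp4 OE, below the lower quartile in both groups, where the array has little range. Adm, the adrenomedullin gene, changed by -0.34 ± 0.11 (log2, SE), short of the threshold (limma, adjusted p = 0.101). The related co-receptor genes Ramp1 and Ramp3 had log2 fold changes of -0.46 and 0.51 and missed the threshold as well (limma, adjusted p = 0.0515 and 0.0827). Within the list of adrenomedullin and apelin genes, 10 of 11 were measured, 0 rose, 2 fell and 8 did not pass, with a median log2 fold change of -0.40. Its share that passed was 20%, beside 16.9% of all named genes. The 2 that fell were Calca, the gene of calcitonin and its related neuropeptide, by 1.36, and Aplnr, the apelin receptor of venous and sprouting endothelium, by 0.60 (log2). A dimmer Calca probe gave -0.09 and did not pass.

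Among the 4 junction genes, Cldn5 was the one that passed. Cldn5, the claudin that seals endothelial tight junctions, read 10.16 and 10.26 in controls and 10.72 and 10.82 in Bmp4 OE. The gap between groups was several times the spread within them. Its log2 fold change was 0.56 ± 0.11 (SE; 95% interval 0.29 to 0.83; limma, adjusted p = 0.0298). Cdh5, which encodes the homophilic cadherin of endothelial adherens junctions, read 10.82 and 10.75 in controls and 10.66 and 10.79 in Bmp4 OE. The groups overlapped, and the 95% interval of the log2 fold change ran from -0.33 to 0.21, so a change as large as that of Cldn5 lay outside it. The within-array difference of Cldn5 minus Cdh5 was -0.66 and -0.49 in controls and 0.06 and 0.03 in Bmp4 OE, with no overlap. Cdh5 was the only member with a log2 fold change below 0. Against the median of the other 8 members, Cldn5 lay 0.24 and 0.405 above it in controls and 0.375 and 0.62 in Bmp4 OE, with overlap. Cdh5 lay 0.9 and 0.895 above its own such median in controls and 0.315 and 0.59 in Bmp4 OE, without overlap.

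Pecam1 encodes CD31, an immunoglobulin-family adhesion protein of endothelial borders that platelets and leukocytes also carry. Its brighter probe read 10.78 on both control arrays and 11.17 on both Bmp4 OE arrays, and its dimmer probe read 9.56 and 9.51 in controls and 9.28 and 9.67 in Bmp4 OE. The first separated the groups with no spread within them at 2 decimals, and the second overlapped. The brighter probe changed by 0.39 ± 0.10 (log2, SE), which fell short of the threshold (limma, adjusted p = 0.0556) but passed with an intensity trend in the variance (adjusted p = 0.044), without probes below the median intensity (adjusted p = 0.0356) and on a log2 scale of the linear value plus 50 (adjusted p = 0.0335). It was 0.17 with the mean of both probes (adjusted p = 0.334), 0.13 under the housekeeping median (adjusted p = 0.912) and 0.30 under the housekeeping mean (adjusted p = 0.128). The dimmer probe gave -0.06 ± 0.15 (SE; adjusted p = 0.825). Which transcripts each probe reads is not known here, so the level of Pecam1 stays uncertain in direction.

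Esam, an immunoglobulin-family adhesion molecule of endothelial tight junctions, read 10.11 and 10.20 in controls and 10.66 and 10.35 in Bmp4 OE. The groups did not overlap, but the 2 Bmp4 OE arrays lay further apart than the nearer of them lay from the controls. The log2 fold change was 0.35 ± 0.14 (SE; limma, adjusted p = 0.148), and it was 0.20 without Bmp4 OE replicate 1 and 0.51 without Bmp4 OE replicate 2, and 0.09 under the housekeeping median.

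Most junction components that other cell types share did not pass, though 35.5% passed in either direction, beside 16.9% of all named genes. Of 32 junction partners, cadherins and claudins, 31 were measured, and 8 rose (25.8%, beside 7.39% of all named genes), 3 fell (9.68%, beside 9.54%) and 20 did not pass, with a median log2 fold change of 0.11. Cdh1, the cadherin of epithelium, rose by 0.92 and Cdh2, the cadherin of mesenchyme, fell by 0.82 on the log2 scale, on either side of Cdh5. The other claudin genes that rose were Cldn11, Cldn2, Cldn6, Cldn4 and Cldn15, and Cldn10 fell. Cldn6 and Cldn4, claudins of epithelium, had log2 fold changes of 0.62 and 0.56, the second equal to that of Cldn5. Of 6 epithelial markers, 3 rose (Krt8, Krt18 and Cdh1), 2 fell (Krt14 and Krt5) and 1 did not pass (83.3% passed, beside 16.9% of all named genes). Their mean log2 intensity was 10.85 and 10.77 in controls and 11.04 and 11.14 in Bmp4 OE. Their summed linear intensity went the other way, with 33399 and 35471 in controls and 26785 and 27724 in Bmp4 OE. The part of epithelium in the rise of Cldn5 was not tested.

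Kdr and Flt1 encode the VEGF receptors of blood endothelium: KDR (VEGFR2) carries most of the signal, and FLT1 (VEGFR1) binds VEGF tightly and limits it. Kdr read 9.73 and 9.51 in controls and 10.03 and 10.05 in Bmp4 OE, and the groups did not overlap. Its log2 fold change of 0.42 ± 0.12 (SE; 95% interval 0.12 to 0.72) missed the threshold (limma, adjusted p = 0.0711). Flt1 read 8.97 and 8.70 in controls and 8.76 and 9.16 in Bmp4 OE, and here the groups overlapped. Its log2 fold change was 0.12 ± 0.18 (SE; limma, adjusted p = 0.671), and the sign turned without control replicate 2 (-0.01), without Bmp4 OE replicate 2 (-0.075) and under the housekeeping median (-0.14). The 95% interval of Flt1 ran from -0.31 to 0.56. On each array Kdr exceeded Flt1, by 0.76 and 0.81 in controls and by 1.27 and 0.89 in Bmp4 OE. These differences did not overlap between groups, and 2 arrays against 2 cannot give an exact two-sided permutation p below 0.33. Under the housekeeping median the log2 fold change of Kdr was 0.16.

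Among the ligands of these receptors, Pgf passed and the VEGF genes did not. Pgf, the placental growth factor gene, whose product binds FLT1, rose from 9.09 and 9.22 to 9.81 and 9.92, by 0.71 on the log2 scale (limma, adjusted p = 0.0192). Vegfa and Vegfb had log2 fold changes of -0.24 and -0.35, and neither passed (adjusted p = 0.223 and 0.168). Vegfc and Vegfd, ligands of the lymphatic receptor FLT4, had 0.43 and 0.41 and narrowly missed the threshold (limma, adjusted p = 0.0539 and 0.0531). Flt4 itself read 8.05 and 8.23 in controls and 8.04 and 8.27 in Bmp4 OE, and the co-receptor gene Nrp1 had a log2 fold change of -0.17. None of the 4 lymphatic markers Prox1, Lyve1, Flt4 and Pdpn passed in limma. An unadjusted p under 0.05 was found for 0 of them and for 6063 of the 16637 named genes. Lyve1 lay below the lower quartile.

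The TIE receptors did not pass, while their ligands rose. Tek (TIE2), the signalling receptor of the angiopoietins, read 9.03 and 8.87 in controls and 9.17 and 9.26 in Bmp4 OE. Tie1, its partner without a firmly known ligand of its own, read 9.07 and 9.23 in controls and 9.28 and 9.38 in Bmp4 OE. Neither pair of groups overlapped, but the gap between the nearest arrays was 0.14 for Tek and 0.05 for Tie1, no more than the spread within a group. Their log2 fold changes were 0.27 ± 0.11 and 0.18 ± 0.11 (SE; limma, adjusted p = 0.172 and 0.332), and under the housekeeping median they were 0.005 and -0.08. As deposited, a change of 1 log2 unit lay outside both 95% intervals, which ended at 0.55 and 0.46. Angpt1, the activating ligand made by cells around the vessel, read 6.36 and 6.86 in controls and 9.07 and 9.10 in Bmp4 OE, from below the lower quartile or close to it. Angpt2, the context-dependent ligand that endothelium makes, read 7.66 and 7.80 in controls and 9.04 and 9.01 in Bmp4 OE. Angpt2 rose 2.45-fold (log2 fold change 1.29 ± 0.11, SE; limma, adjusted p = 0.00502). Among all 16 measured ligands, co-receptors and related genes of the VEGF and angiopoietin list, 5 rose, 1 fell and 10 did not pass, with a median log2 fold change of 0.22. The share that rose was 31.25%, beside 7.39% of all named genes, and 6.25% fell, beside 9.54%. Ptprb, the phosphatase that quiets TEK, changed by 0.27 with a wide error (0.21, SE), and it did not pass.

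**Figure D2:**
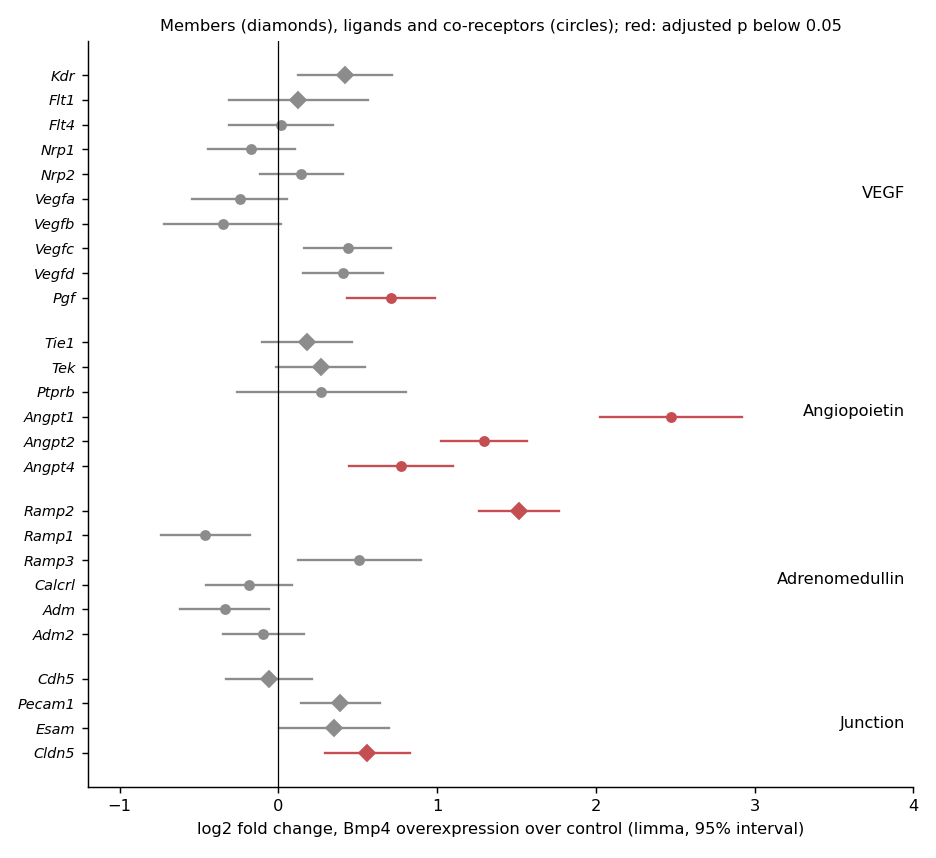
Log2 fold change of Bmp4 overexpression over control (horizontal axis) with its 95% interval from limma, for the members (diamonds) and for their ligands, co-receptors and relatives (circles), in red where the adjusted p was below 0.05. Angpt1, Angpt2, Angpt4 and Pgf lie to the right, beside Kdr, Flt1, Tie1 and Tek with values between 0.12 and 0.42, while Ramp2 lies at 1.52 beside a Calcrl of -0.18.

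Promoter windows were at hand for 6 of the 10 genes: Kdr, Flt1, Tie1, Tek, Emcn and Cldn5. They come from RefSeq's mouse annotation on GRCm38.p6, and each covers the 250 bases before the annotated start. Those of Cldn5, a member that rose, and of the VEGF receptor pair are printed because endothelial promoters are known for ETS factor sites, whose core is GGAA. Capitals mark GGAA or its reverse complement TTCC, and each sequence runs 5′ to 3′ on the gene's strand, for Cldn5 chr16:18776597-18776846 (plus strand), for Kdr chr5:75978456-75978705 (minus strand) and for Flt1 chr5:147726012-147726261 (minus strand).
Cldn5: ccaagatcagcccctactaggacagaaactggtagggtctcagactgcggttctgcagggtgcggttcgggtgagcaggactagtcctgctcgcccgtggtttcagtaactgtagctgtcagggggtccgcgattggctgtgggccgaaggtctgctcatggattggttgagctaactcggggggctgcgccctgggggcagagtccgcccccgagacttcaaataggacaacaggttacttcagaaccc
Kdr: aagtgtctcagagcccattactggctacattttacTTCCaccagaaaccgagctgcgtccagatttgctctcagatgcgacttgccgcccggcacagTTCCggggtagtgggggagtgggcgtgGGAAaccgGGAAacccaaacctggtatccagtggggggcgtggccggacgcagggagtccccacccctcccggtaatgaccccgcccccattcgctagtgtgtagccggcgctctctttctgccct
Flt1: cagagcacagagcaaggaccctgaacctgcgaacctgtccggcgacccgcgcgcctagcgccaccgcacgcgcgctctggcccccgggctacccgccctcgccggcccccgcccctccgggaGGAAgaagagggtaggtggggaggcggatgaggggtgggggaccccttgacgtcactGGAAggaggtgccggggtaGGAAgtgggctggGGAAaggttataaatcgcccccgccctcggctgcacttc
The Cldn5 window held 0 copies of the core, the Kdr and Flt1 windows held 4 each, and those of Tie1, Tek and Emcn held 7, 2 and 4. Over all 32851 windows of this length 93.4% held at least 1 copy, with a median of 3, counted on both strands. The longer form AGGAAG (reverse complement CTTCCT), which contains the core, had 2 copies in Flt1, 2 in Emcn and 1 in Tie1, was absent from the other 3 windows, and was found in 29.5% of all windows. The GATA motif AGATAA (reverse complement TTATCT) and the GC-rich SMAD motif GGCGCC, its own reverse complement, had 0 copies in all 6 windows, and 9.99% and 9.59% of all windows held them. These are matches of letters only.

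The pooled lists of genes linked to endothelium had a median change near 0. Pooled over 6 further lists and without the members, 121 of 126 genes were measured, 17 rose, 14 fell and 90 did not pass, with a median log2 fold change of 0.01. The share that passed either way was 25.6%, where that of all named genes was 16.9%. These lists were not limited to endothelial markers, and include Angpt1, from cells around the vessel, and the neuropeptide gene Calca. Of the 121 genes, 16 were dim, with both group means under the lower quartile, and Gja1 read 16 on all 4 arrays. The pooled median therefore describes this mix and not endothelial genes alone. The 7 endothelial markers that are no members, Cd34, Eng, Erg, Sox17, Sox18, Egfl7 and Robo4, had a median of -0.10, and 0 passed in limma. By brightest probe, 1 of them had an unadjusted p under 0.05 (Egfl7), as did 6063 of the 16637 named genes. A dimmer Eng probe gave 0.415 without overlap of the groups, and a dimmer Robo4 probe gave -0.07. Neither passed (limma, adjusted p = 0.0872 and 0.761), the Eng probe with an unadjusted p under 0.05. Cd34, a sialomucin of endothelium and blood progenitors, read 11.96 and 11.99 in controls and 11.73 on both Bmp4 OE arrays, lower without overlap but not past the threshold (limma, adjusted p = 0.156). Cd34 and the brighter Pecam1 probe, both usual markers of the same cells, had log2 fold changes of opposite sign. The mean log2 intensity of the 7 markers was 9.53 and 9.54 in controls and 9.53 and 9.49 in Bmp4 OE, whereas that of the 9 members was 10.04 and 9.99 in controls and 10.40 and 10.46 in Bmp4 OE. Without Ramp2 and Cldn5, the other 7 members averaged 9.79 and 9.72 in controls and 9.96 and 10.02 in Bmp4 OE.

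Within the list of other endothelial surface and secreted genes, 41 of 43 were measured. Of these, 6 rose, 2 fell and 33 did not pass (median 0.04, 19.5% passed beside 16.9% of all named genes). Those that rose were Sparcl1, Vwf, Stab1, Bcl6b, Mmrn2 and Adgrl4, with log2 fold changes from 0.41 for Adgrl4 to 0.95 for Sparcl1. Vwf, which encodes the clotting factor stored in endothelial granules, read 8.07 and 7.88 in controls and 8.74 and 8.55 in Bmp4 OE. Those that fell were Esm1, a proteoglycan of sprouting tip cells, by 1.29, and Mcam, an adhesion molecule that mural cells share, by 0.75 on the log2 scale. Among 27 measured endothelial transcription factors, 5 rose, 5 fell and 17 did not pass (median -0.07, 37.0% passed). Gata2 rose most, and Sox7, which shares its vascular role with Sox17 and Sox18, fell by 0.58 (limma, adjusted p = 0.0337), while Sox17 and Sox18 had -0.12 and -0.22 and did not pass. Of 13 measured genes of the endothelial BMP and TGF-beta list, 0 rose, 2 fell (Bmp6 and Tgfbr3) and 11 did not pass (median 0, 15.4% passed). Tgfbr3 gave -1.92 at its brightest probe, while a dimmer probe gave -0.105 with overlapping groups and did not pass (limma, adjusted p = 0.584). Acvrl1, the gene of ALK1, had 0.56 and missed the threshold (limma, adjusted p = 0.0539). Of 19 arterial, venous and Notch genes, 1 rose (Unc5b), 3 fell (Notch1, Hey2 and Cxcl12) and 15 did not pass (median 0.06, 21.1% passed).

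**Figure D3:**
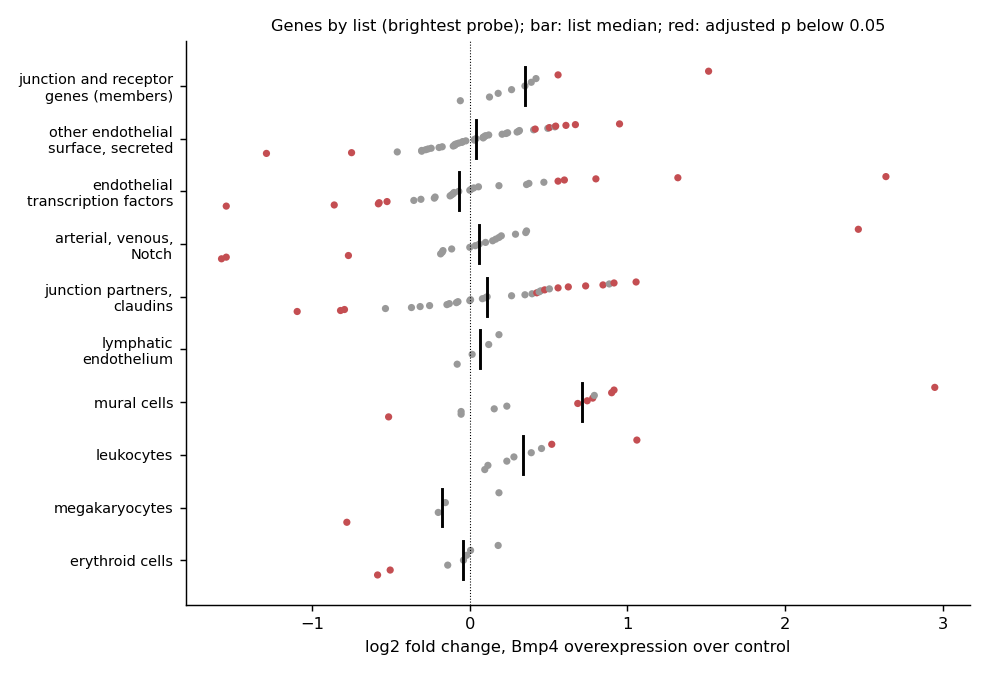
Log2 fold change of each measured gene (horizontal axis) by list, 1 point per gene at its brightest probe, red where the adjusted p was below 0.05, with a black bar at the list's median. The bar stands at 0.35 for the junction and receptor genes, at 0.04 for other endothelial surface genes, at 0.335 for leukocyte genes and at 0.71 for mural cell genes.

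Markers of other cell types in and around vessels were read the same way, and the share that passed was 58.3% for mural cells, 25% for leukocytes, 25% for megakaryocytes and 28.6% for erythroid cells, beside 16.9% of all named genes. Of 12 mural cell genes, 6 rose (Rgs5, Acta2, Tagln, Kcnj8, Cnn1 and Des), 1 fell (Pdgfrb) and 5 did not pass, with a median of 0.71. Their summed linear intensity was 10441 and 10613 in controls and 14123 and 14237 in Bmp4 OE. Abcc9 did not pass at its brightest probe (0.155), but a dimmer probe gave 1.21 and passed (limma, adjusted p = 0.0102). The dimmer Acta2 probes gave 0.685, -0.16 and -0.22, and only the first passed (limma, adjusted p = 0.0285). Of 8 leukocyte genes, 2 rose (Adgre1 and Mrc1), 0 fell and 6 did not pass. Their median log2 fold change was 0.335, beside 0.35 for the members, and all 8 were above 0, as were 49.6% of all named genes. Their summed intensity was 2437 and 2418 against 3300 and 3382, and Ptprc, the defining gene CD45, lay below the lower quartile. Of 4 measured megakaryocyte genes 1 fell (Ppbp) and 3 did not pass, with 6380 and 6849 against 5748 and 5694, and of 7 measured erythroid genes 2 fell (Alas2 and Klf1) and 5 did not pass, with 204977 and 198793 against 197027 and 193196. Several globin probes read close to the top of the scale. The sum of the 9 members was 11440 and 11179 in controls and 18993 and 19002 in Bmp4 OE, and without Ramp2 it was 8226 and 8096 against 9904 and 10099. No marker was at 0 on this scale, whose lowest value is 5.68 in log2. The part of mural cells and leukocytes in the values of the members was not tested. In the list of mandibular mesenchyme, 1 rose, 3 fell and 3 of 7 did not pass (57.1% passed). For muscle, 0 of 4 passed in limma, 1 with an unadjusted p under 0.05. For neurons and glia, 0 of 4 measured genes passed, 3 with an unadjusted p under 0.05. Of all 16637 named genes, 6063 had an unadjusted p under 0.05 in limma. The medians of mesenchyme, muscle, and neurons and glia were -0.17, 0.07 and 0.34.

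**Figure D4:**
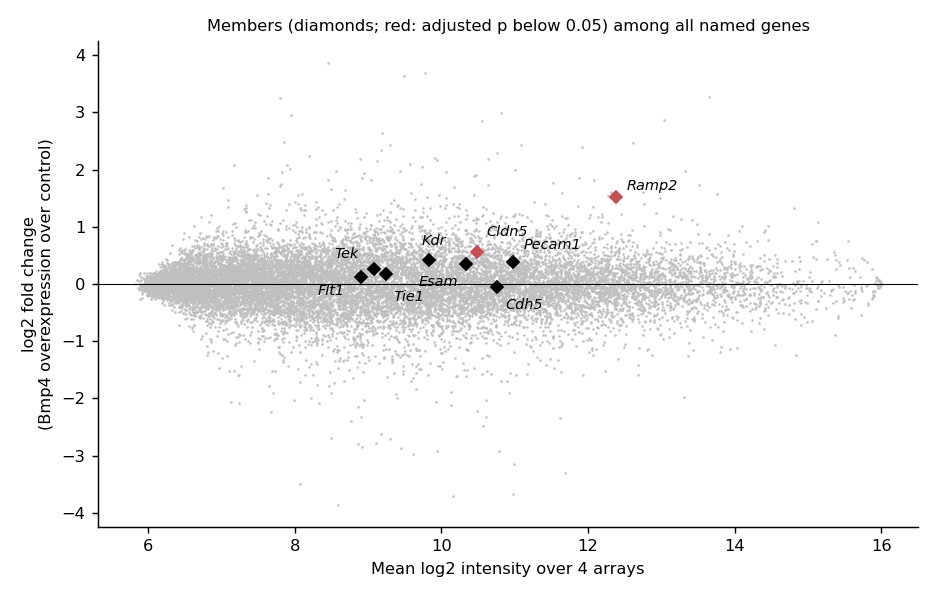
Log2 fold change of Bmp4 overexpression over control (vertical axis) against the mean log2 intensity of the 4 arrays (horizontal axis) for all 16637 named genes in grey, with the 9 members as diamonds, red where the adjusted p was below 0.05. The members lie above the median intensity of 7.95, Ramp2 at 1.52 above the bulk of genes and the other 8 between -0.06 and 0.56.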

How the data were processed

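Total RNA was converted to aminoallyl RNA carrying Cy5, 1 sample per array, per the labels' protocols. The deposited values are log2 intensities for 29922 probes on 4 arrays, and they had been quantile-normalised: the sorted columns are identical (largest difference 0). The log base was read from the maximum of 16. The labels name no scanner, software, background correction or probe filter. Quantile normalisation hides any shift shared by most genes.

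Probes were named from the platform annotation, updated with the GRCm38.p6 RefSeq table: 21020 had 1 symbol (3410 through a synonym, 52 unmatched), 0 several and 8902 none. For the 3566 genes with several probes, the brightest over all arrays stood for the gene. Tests were run per probe in R 4.3.3 with limma 3.58.1 (lmFit, eBayes, two-sided, no covariate, 2 residual and 3.59 prior degrees of freedom). Errors are standard errors of that fit, and the number of arrays limits the precision. On simulated arrays for this comparison (29922 probes, 200 changed, 20 runs), an adjusted p of 0.05 recovered 93.2% of changes of 2, 30.7% of 1 and 0.149% of 0.5 log2 units. In the data 4427 probes passed, which makes the adjusted threshold less strict than with 200 changed, so these shares do not carry over to it.

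The members and the 17 other gene lists were chosen with earlier results of these data known. The naming rule took all members, their ligands and co-receptors, Cd34, Eng, Flt4, Bmp4, and up to 6 genes with the smallest p among those passing in each list; further list genes were named after their values were seen. Alternatives covered array scaling, the log offset, dim-probe filters, the variance model, the replicate block, each array left out, the probe rule and the study's threshold.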

Additional observations from a re-analysis of the deposited data

How the results depend on the processing

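The housekeeping mean is left out of the next count. Among 126 log2 fold changes of single members under another alternative, 105 kept their direction and their side of the threshold, 13 no longer passed, 3 newly passed and 5 changed sign. The trimmed mean, the dim-probe filters, the variance models, the replicate block and the study's threshold left every member's log2 fold change as it was. Direction could not change there, so the count of 105 does not measure how stable the directions are. Centring on the median of 13 housekeeping genes shifted Bmp4 OE down by 0.26 against control and widened the errors. It left 79 probes higher and 397 lower, 0 members higher, and 4 higher and 10 lower genes in the other lists, and it gave 1.26 for Ramp2 (adjusted p = 0.0617), 0.30 for Cldn5, -0.14 for Flt1 and -0.08 for Tie1. Centring on their mean, chosen after seeing the data, shifted by 0.0862 and kept 2 members higher, with 1656 probes higher and 3746 lower, against 1912 and 2515 as deposited. Pecam1 passed at 0.38 on the log2 scale of the linear value plus 50, at 0.39 without probes below the median and at 0.39 with an intensity trend. At the study's threshold 364 probes were higher and 422 lower, with 1 member higher and 11 higher and 10 lower genes in the other lists (36 and 26 at the adjusted p), and Cldn5, at 0.56, did not pass.

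Equal replicate numbers did not pair the arrays (correlation of deviations -0.0711). With the replicate block 0 probes, 0 members and 0 genes of the other lists passed, Ramp2 at 1.52 (adjusted p = 0.0745) and Cldn5 at 0.56 (adjusted p = 0.0902). With 1 array left out, 0 probes and 0 members passed. The log2 fold changes then ranged from 1.49 to 1.55 for Ramp2, 0.51 to 0.61 for Cldn5, -0.13 to 0.005 for Cdh5 and -0.075 to 0.33 for Flt1. Centring on the trimmed mean changed no value, since the arrays share 1 distribution. Detection calls were not used here, so low signals have no measured limit.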

Other observations

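Of 37 genes of the endothelial and junction lists that had several probes, members left out, 19 had log2 fold changes of one sign at all their probes and 18 did not. In 1 of them, Klf4, probes passed in opposite directions. Klf4 and the next examples were picked with their values in view. The endothelial transcription factor gene Klf4 had 3 probes with log2 fold changes of -0.57, 0.42 and 0.07, of which the first fell and the second rose (limma, adjusted p = 0.0259 and 0.0476). The venous receptor gene Ephb4 gave 0.35 at its brighter probe and -0.52 at its dimmer one, and only the dimmer passed (limma, adjusted p = 0.0312). The vascular protocadherin gene Pcdh12 gave 0.41 and -0.41, and neither passed.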
